A study of Mus musculus with 4 samples.

Results

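Rgs5-high cells of the ascending aorta were studied in 2 single-cell libraries of sorted smooth muscle cells (SMCs). Members were chosen by Rgs5 itself: a cell had to have at least 1000 detected genes, at most 10% of its UMIs (unique molecular identifiers, each standing for 1 captured RNA molecule) from mitochondrial genes, at least 10 UMIs of Myh11, the smooth muscle myosin heavy chain, and at least 5 UMIs of Rgs5. The rule found 431 members among 6220 kept cells of the library Asc-GFP and 322 among 3850 kept cells of Asc-RFP, 753 of 10070 in all. Cells of the same library with 0 Rgs5 UMIs, 4273 in Asc-GFP and 2419 in Asc-RFP, were the contrast, and are called Rgs5-zero cells below.

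The mice were 12 weeks old and carried Wnt1-Cre2, a transgene that expresses Cre recombinase in the neural crest, and mT/mG, a reporter that makes membrane tdTomato until Cre switches it to membrane eGFP. ITGA8+ cells, ITGA8 being an integrin subunit on the surface of aortic SMCs, were sorted by reporter colour after enzymatic digestion in the cold, with the colour set by segment. Asc-GFP therefore holds eGFP+ ascending aortic cells with a neural crest history, Asc-RFP holds tdTomato+ ascending aortic cells without one, Arch-GFP holds eGFP+ cells of the aortic arch, and Root holds cells of the aortic root, whose colour gate the sources do not name. There was 1 library per group, no untreated or treated arm, and how many animals went into a library is not stated in these sources, so differences between libraries could not be tested and all intervals below are exact 95% intervals that cover counting error only. Where a count is 0, the share it allows is given as that of 3 cells.

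RGS5 is a GTPase-activating protein that shortens signalling from Gi- and Gq-coupled receptors. It is widely used as a marker of pericytes, the mural cells of capillaries, where it is found with Kcnj8 and Abcc9, the pore and sulfonylurea receptor subunits of the vascular ATP-sensitive potassium channel, with Higd1b, a mitochondrial protein gene, and with the receptor gene Notch3. Rgs5 is also expressed in SMCs of some arteries, so the gene alone does not name a cell type.

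The 4 matrices held 4040 to 10506 barcodes and 41479646 to 104691850 UMIs. The labels give 4050 cells after filtering for Asc-GFP and 2450 for Asc-RFP, by a filter the sources do not describe, and the present filters kept 6220 and 3850. Libraries shared 9 to 34 barcode sequences pairwise and no barcode of an Rgs5-high cell. The reporters matched the labels of the members: eGFP was at 3343 CPM (each gene's UMIs scaled to the summed UMIs of the cells) in Rgs5-high cells of Asc-GFP and 10.9 CPM in those of Asc-RFP, and tdTomato was at 0 and 438 CPM. In Asc-GFP 42 members (9.74%, interval 7.11 to 12.9) held UMIs of both Xist, a transcript of female cells, and a Y-linked gene, a possible sign of doublets, against 8.28% of Rgs5-zero cells. In Asc-RFP these shares were 7.76% (5.09 to 11.2) and 5.13%.

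Rgs5 was at 0 in most ascending cells and high in few. It had no UMI in 68.7% (67.5 to 69.8) of kept cells of Asc-GFP and 62.8% (61.3 to 64.4) of Asc-RFP. Members made up 6.93% (6.31 to 7.59) and 8.36% (7.51 to 9.28), against 19.6% (18.7 to 20.5) in Arch-GFP and 1.48% (1.064 to 2.003) in Root. The ascending shares lay between those of Root and Arch-GFP. The intervals cover counting error within 1 library each, and the differences between libraries were not tested. The members held 70.7% of all Rgs5 UMIs of kept cells in Asc-GFP and 69.3% in Asc-RFP. A member had a median of 9 Rgs5 UMIs in either ascending library and at most 90 and 91, against a median of 14 and a maximum of 126 in Arch-GFP. Among cells thinned to 6000 UMIs each, by drawing that many of a cell's UMIs at random, the variance of Rgs5 was 6.14 times its mean in Asc-GFP and 7.58 times in Asc-RFP, where genes of like mean had medians of 1.05 and 1.06. Fos, an immediate-early gene, was the 1 gene of like mean with a higher value in either library.

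**Figure D1:**
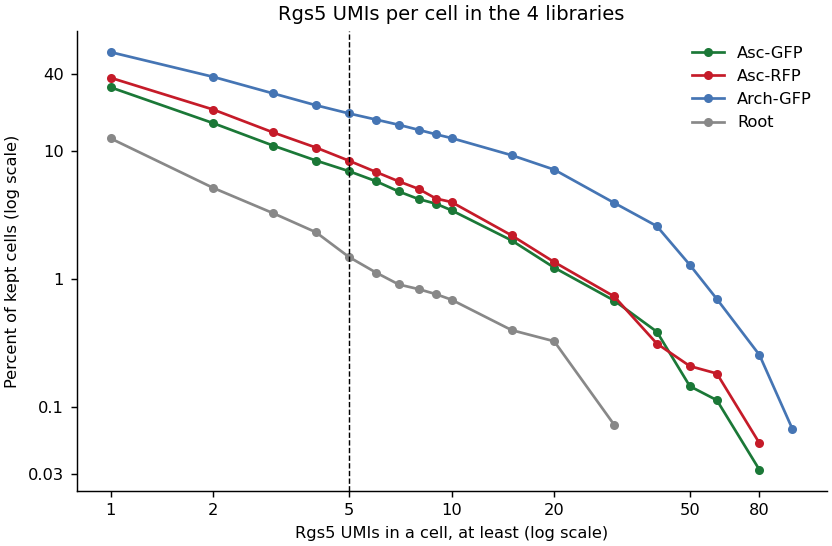
Percent of kept cells (vertical, log scale) with at least the number of Rgs5 UMIs on the horizontal axis (log scale), 1 line per library, with the threshold of 5 UMIs dashed. The lines of Asc-GFP and Asc-RFP run close together, at 6.93% and 8.36% at the threshold, between Arch-GFP at 19.6% and Root at 1.48%, and no line shows a gap that separates the members from the rest.

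The threshold cuts a continuous range. In Asc-GFP 91 cells had exactly 4 Rgs5 UMIs and 71 exactly 5, and in Asc-RFP 86 and 59. Just outside and just inside the threshold, Vcan stood at 139 and 150 CPM in Asc-GFP and at 115 and 184 CPM in Asc-RFP, and Sncg at 73.3 and 19.05 CPM and at 32.9 and 31.6 CPM. Members were also deeper than the contrast cells, with median UMIs of 16531 against 12593 in Asc-GFP and 15601 against 13256 in Asc-RFP. For that reason every level below comes from cells thinned to 6000 UMIs, which left 429 members and 3886 Rgs5-zero cells in Asc-GFP and 321 and 2144 in Asc-RFP. The median percent of mitochondrial UMIs was 5.02 in members and 5.12 in Rgs5-zero cells of Asc-GFP, and 5.12 and 4.95 in Asc-RFP. Shares by sex, read from Xist and Y-linked UMIs, were uneven: 8.29% (7.41 to 9.24) of female and 4.65% (3.66 to 5.83) of male cells of Asc-GFP were members, against 8.81% (7.54 to 10.2) and 8.45% (7.11 to 9.96) in Asc-RFP and 15.6% (13.8 to 17.4) and 22.8% (21.5 to 24.1) in Arch-GFP. Female and male cells come from different animals, so sex and animal cannot be told apart.

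SMC markers were at like levels in members and Rgs5-zero cells. All 12 SMC markers were measured in both libraries (at least 5 CPM in either cell group), and their medians of the log2 ratio of Rgs5-high over Rgs5-zero cells were -0.01 in Asc-GFP and 0.06 in Asc-RFP, beside 0.04 in either library for all genes measured. Myh11, which the rule also used, was at 4921 CPM in members and 4782 CPM in Rgs5-zero cells of Asc-GFP, and at 5640 and 5020 CPM in Asc-RFP. Acta2, the smooth muscle actin, was slightly lower, at 20790 against 24190 CPM in Asc-GFP (log2 ratio -0.22, interval -0.23 to -0.21) and 23250 against 25950 CPM in Asc-RFP (-0.16, -0.17 to -0.14). Actg2, a second smooth muscle actin, was higher, at 338 against 245 CPM and at 478 against 310 CPM. Itga8, the sorted surface protein's gene, was at 1732 against 1435 CPM in Asc-GFP and 1571 against 1447 CPM in Asc-RFP.

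Few genes beyond Rgs5 differed much. With a gene called when it was at least 2-fold apart and at 20 CPM or more in either cell group, 24 of 5823 genes (0.412%) were higher in Rgs5-high than in Rgs5-zero cells of Asc-GFP and 8 (0.137%) were lower. In Asc-RFP 18 of 5728 genes (0.314%) were higher and 4 (0.0698%) lower, and in Arch-GFP, from 1424 and 2624 thinned cells, 175 of 6109 (2.86%) were higher and 43 (0.704%) lower. The ascending counts depended on the level minimum and on the cells counted: with a minimum of 5 CPM, Asc-GFP had 107 higher genes and Asc-RFP 115, and with 50 CPM they had 9 and 5. Every ratio in these comparisons has 1 library on each side and no replicate check.

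The same contrast in libraries that share no cells gave lists that overlapped in part. Of the 24 higher genes of Asc-GFP, 20 had a ratio above 0 in Asc-RFP, 17 had a log2 ratio of at least 0.5 there and 4 were called there too, where 54.5% and 2.18% of all genes counted in Asc-GFP did the first and the second. Srpx2, Galnt6, Vcam1 and 9930111J21Rik2 were the 4 that did not go the same way. Of the 18 higher genes of Asc-RFP, 17 were above 0 in Asc-GFP (57.1% of all genes) and 11 at log2 0.5 or more (2.16%). All 4 lower genes of Asc-RFP had a ratio below 0 in Asc-GFP, beside 42.9% of all genes counted in Asc-RFP. Of the 8 lower genes of Asc-GFP, 7 had a ratio below 0 in Asc-RFP, beside 45.5% of all genes counted in Asc-GFP, Pln being the exception. In Arch-GFP, 17 of the 24 higher genes of Asc-GFP and 8 of the 18 of Asc-RFP were called higher as well, where 2.86% of genes were. A ratio above 0 in Arch-GFP was found for 21 of the 24, beside 71.4% of all genes counted in Asc-GFP. It was found for 12 of the 18, beside 71.2% of all genes counted in Asc-RFP, and not for Ctxn1, Dcn, Dlg2, Maf, Osr2 and Rgs2. Across the 5528 genes at 20 CPM or more in both ascending libraries, Pearson's r of the log2 ratios was 0.40 and Spearman's rho 0.27. Between Asc-GFP and Arch-GFP, over 5696 genes, they were 0.51 and 0.38. These are correlations across genes, which are not independent replicates.

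**Figure D2:**
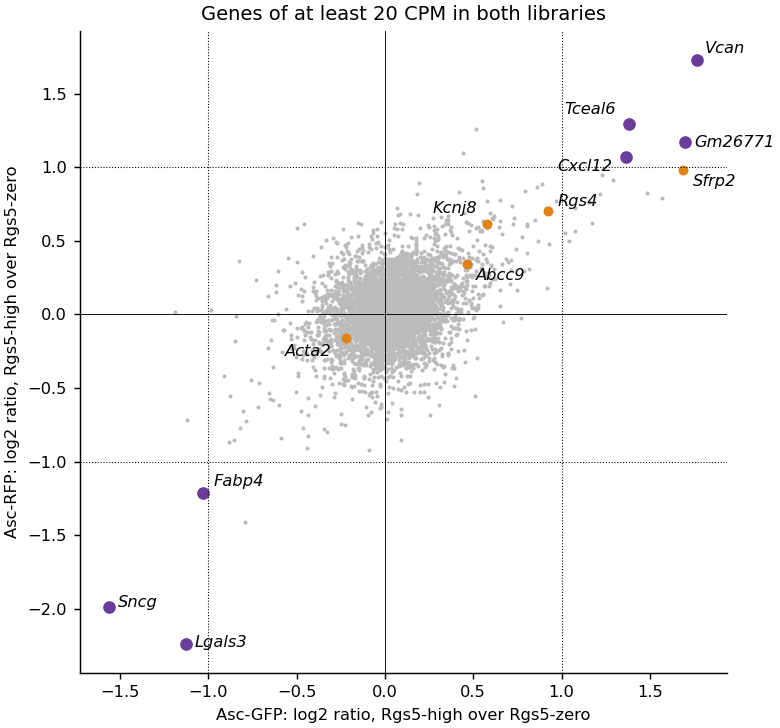
Log2 ratio of Rgs5-high over Rgs5-zero cells in Asc-GFP (horizontal) and Asc-RFP (vertical) for the genes at 20 CPM or more in both libraries, 1 grey point per gene, with 2-fold marked by dotted lines. The 7 genes called in the same direction in both libraries are purple, Vcan, Gm26771, Cxcl12 and Tceal6 at the upper right and Sncg, Fabp4 and Lgals3 at the lower left, and 5 others named in the text are orange.

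Vcan, the gene of versican, a large chondroitin sulfate proteoglycan of the vessel wall, was called higher in both ascending libraries. It was at 230 CPM in members and 67.6 CPM in Rgs5-zero cells of Asc-GFP, 216 and 65.3 CPM in Asc-RFP, and 310 and 68.5 CPM in Arch-GFP. The log2 ratios were 1.77 (1.63 to 1.91), 1.73 (1.55 to 1.90) and 2.18 (2.08 to 2.28), and Rgs5-zero cells of the 3 libraries stood at nearly the same level. Cxcl12, the chemokine ligand of CXCR4, was at 55.6 against 21.6 CPM in Asc-GFP (1.36, 1.09 to 1.64) and 82.0 against 39.0 CPM in Asc-RFP (1.07, 0.80 to 1.33). Tceal6, an X-linked gene of the TCEAL family, was at 52.06 against 19.99 CPM (1.38, 1.09 to 1.66) and 24.9 against 10.2 CPM (1.29, 0.78 to 1.78).

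Sfrp2, a secreted Wnt modulator, was the most abundant of the higher genes in Asc-GFP, at 577 CPM in members and 179 CPM in Rgs5-zero cells (1.685, 1.598 to 1.771). In Asc-RFP it was at 215 and 109 CPM, and its log2 ratio of 0.98 (0.82 to 1.14) was just under the 2-fold mark. Gm26771, called in both libraries, is annotated antisense to the end of Sfrp2 on chromosome 3. It was at 83.1 against 25.6 CPM and 27.5 against 12.2 CPM. The sources do not state whether counting used strand, and whether some of its UMIs come from Sfrp2 transcripts was not tested.

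The 3 genes called lower in both libraries were Sncg, Fabp4 and Lgals3. Sncg, gamma-synuclein, was at 49.7 CPM in members and 147 CPM in Rgs5-zero cells of Asc-GFP (-1.56, -1.83 to -1.31) and at 22.9 and 90.7 CPM in Asc-RFP (-1.99, -2.46 to -1.55). Fabp4, a fatty acid carrier, was at 103 against 210 CPM (-1.03, -1.22 to -0.85) and 51.4 against 119 CPM (-1.22, -1.52 to -0.92). Lgals3, galectin-3, rests on few UMIs in members, 27 in Asc-GFP and 11 in Asc-RFP, and was at 10.5 against 22.9 CPM and 5.71 against 26.9 CPM. The 7 genes called in both libraries kept their direction in female cells alone and in male cells alone of either library.

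Levels of these genes also differed between classes of cells below the threshold. Over cells with 0, 1 to 2, 3 to 4, 5 to 9, 10 to 19 and 20 or more Rgs5 UMIs in Asc-GFP, Vcan stood at 67.6, 88.2, 132, 163, 270 and 351 CPM. Over the same classes of Asc-RFP it stood at 65.3, 90.0, 147, 192, 210 and 308 CPM, so cells below the threshold already lay above cells with none. Sfrp2 went from 179 over 266, 309, 408 and 612 to 993 CPM in Asc-GFP, while in Asc-RFP its 4 highest classes stood at 231, 195, 210 and 288 CPM, with no steady order. Sncg went the other way, from 147 over 94.1, 71.3, 50.9 and 51.1 to 43.9 CPM in Asc-GFP and from 90.7 over 53.9, 36.0, 21.8 and 26.4 to 19.2 CPM in Asc-RFP. Crip1, a LIM-domain protein gene, went from 2278 CPM at 0 to 1072 CPM at 20 or more in Asc-GFP and from 1954 to 1054 CPM in Asc-RFP. Median UMIs before thinning were higher in the cells with 20 or more than in the cells with none, at 18820 against 12590 in Asc-GFP and 17010 against 13260 in Asc-RFP, and their part in these levels beyond the thinning was not tested.

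**Figure D3:**
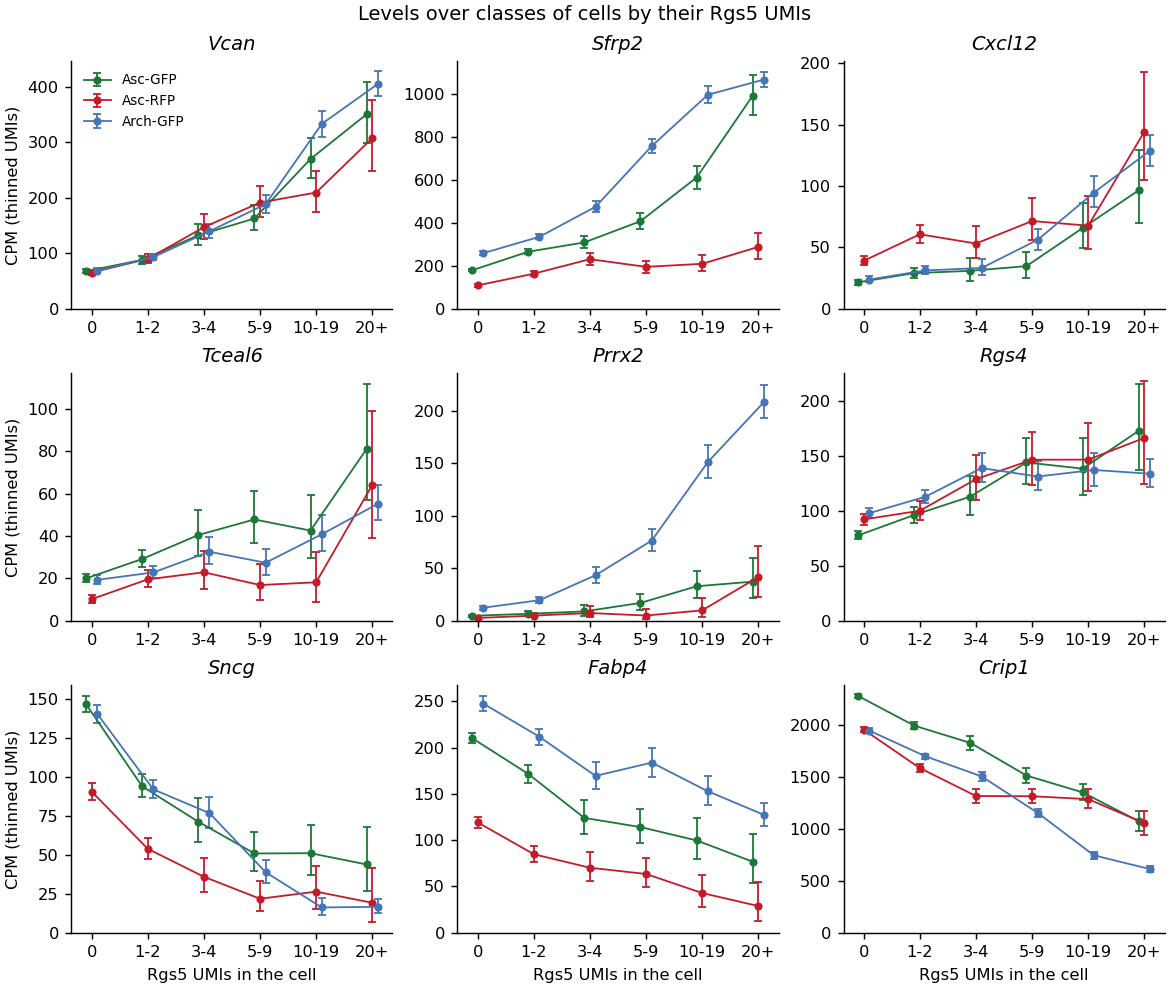
CPM of 9 genes (vertical, linear from 0) in cells grouped by their Rgs5 UMIs (horizontal), 1 line per library, with exact Poisson 95% intervals as bars. Vcan, Cxcl12 and Prrx2 are highest and Sncg, Fabp4 and Crip1 lowest in cells with 20 or more Rgs5 UMIs of Asc-GFP, and Sfrp2 reaches 993 CPM there but 288 CPM in Asc-RFP.

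Among the regulators of G protein signalling, Rgs4 was higher with Rgs5. It lies 45.7 kb from Rgs5 on chromosome 1, on the opposite strand, with no other annotated gene between them, and encodes another GTPase-activating protein for Gi and Gq. Rgs4 was at 148 against 77.8 CPM in Asc-GFP (0.92, 0.76 to 1.08), 150 against 92.4 CPM in Asc-RFP (0.70, 0.51 to 0.89) and 134 against 98.1 CPM in Arch-GFP (0.45, 0.34 to 0.56). Unlike Vcan, Rgs4 in Arch-GFP stayed between 131.5 and 139.2 CPM over the 4 classes from 3 to 4 Rgs5 UMIs upward. Rgs2 was higher in Asc-RFP, at 22.9 against 11.3 CPM (1.009, 0.4885 to 1.5045, with 1.67 in female and -0.47 in male cells), and stood at 17.9 against 15.6 CPM in Asc-GFP. Rgs7 was at 22.1 against 15.1 CPM in Asc-GFP (0.55, 0.12 to 0.96) and 22.3 against 20.4 CPM in Asc-RFP. Of 19 measured genes of RGS and G protein signalling, 2 were higher by a log2 ratio of at least 0.5 and 1 was lower in each library, where 6.2% and 3.38% of all 9740 genes measured in Asc-GFP and 7.31% and 4.59% of the 9712 measured in Asc-RFP were. The lower genes, Rgs19 in Asc-GFP and Arrb1 in Asc-RFP, passed the 5 CPM minimum through the Rgs5-zero cells alone.

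The 250 bases before the annotated start of Rgs5 and of 3 genes that went with it are shown, because a shared letter pattern there would be the first thing to look for in genes that move together. They are from RefSeq on GRCm38.p6, the build also called mm10, and are written 5′ to 3′ along the gene. Capitals mark TGGGAA, the core of the RBPJ motif of Notch signalling, and TATAAA, the TATA box, on either strand.
Rgs5, chr1:169655251-169655500, plus strand: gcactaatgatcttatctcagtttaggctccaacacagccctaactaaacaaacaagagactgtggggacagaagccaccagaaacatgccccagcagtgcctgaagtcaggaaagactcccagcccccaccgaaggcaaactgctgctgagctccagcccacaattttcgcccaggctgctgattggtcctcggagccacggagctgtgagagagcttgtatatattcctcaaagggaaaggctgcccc
Rgs4, chr1:169747643-169747892, minus strand: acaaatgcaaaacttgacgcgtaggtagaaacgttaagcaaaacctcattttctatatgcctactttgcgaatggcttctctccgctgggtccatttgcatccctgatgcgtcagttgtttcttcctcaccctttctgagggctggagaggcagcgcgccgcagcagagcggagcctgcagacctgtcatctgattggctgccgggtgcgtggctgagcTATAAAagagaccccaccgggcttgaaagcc
Vcan, chr13:89742513-89742762, minus strand: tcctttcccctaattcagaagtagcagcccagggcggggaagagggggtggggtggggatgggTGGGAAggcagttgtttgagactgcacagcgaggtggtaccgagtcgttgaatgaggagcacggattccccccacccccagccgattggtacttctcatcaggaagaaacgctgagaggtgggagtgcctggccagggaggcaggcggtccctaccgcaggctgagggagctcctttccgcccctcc
Cxcl12, chr6:117168285-117168534, plus strand: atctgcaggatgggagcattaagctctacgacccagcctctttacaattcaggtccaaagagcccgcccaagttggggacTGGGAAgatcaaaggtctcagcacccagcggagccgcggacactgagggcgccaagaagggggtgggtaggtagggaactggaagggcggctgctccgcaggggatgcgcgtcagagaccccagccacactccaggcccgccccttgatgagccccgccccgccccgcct
The search on both strands covered those motifs, the CArG box bound by serum response factor, the homeodomain core TAATTA and the AP-1 motif TGANTCA. In 27025 RefSeq promoters of the same length, 21.5% held TGGGAA, 12.97% TATAAA, 1.40% a CArG box, 4.90% TAATTA and 6.87% TGANTCA. The window of Rgs5 held none of the 5, Rgs4 held TATAAA, and Vcan and Cxcl12 each held TGGGAA. No motif was found in all 4 windows, which says only that these letters are absent from these bases. The search covered 10 windows, and those of Sfrp2, Prrx2, Kcnj8, Lgals3, Sncg and Tceal6 held none of the 5. The 3 genes shown beside Rgs5 are thus those with a match.

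Of the pericyte genes, Kcnj8 and Abcc9 were somewhat higher in members, Notch3 was not, and Higd1b, Vtn, Ndufa4l2 and Steap4 were at or near 0. Kcnj8 was at 38.5 against 25.8 CPM in Asc-GFP (0.57, 0.25 to 0.88) and 32.7 against 21.4 CPM in Asc-RFP (0.61, 0.19 to 1.01). Abcc9, its neighbour 16.2 kb away on chromosome 6, was at 158 against 115 CPM (0.46, 0.31 to 0.61) and 91.9 against 72.4 CPM (0.34, 0.10 to 0.58). Both were thus present in Rgs5-zero SMCs as well, and higher in members by less than 2-fold. Notch3 was lower in members of Asc-GFP, at 16.3 against 27.6 CPM (-0.76, -1.247 to -0.31), and stood at 14.02 against 14.77 CPM in Asc-RFP (-0.08, -0.71 to 0.51). Higd1b had no UMI in any of the 6220 kept cells of Asc-GFP, and 0 of 431 members allows a share of up to 0.696%. In Asc-RFP, 1 of 322 members (0.311%, 0.00786 to 1.72) and 1 of 2419 Rgs5-zero cells (0.0413%) had a Higd1b UMI. Vtn, which pericytes of several tissues express at a high level, had no UMI in any kept cell of either library. The kept cells were sorted on ITGA8 and had at least 10 Myh11 UMIs, so these values do not cover mural cells with little of either. Among barcodes that failed only the Myh11 minimum, 3 of 188 in Asc-GFP and 1 of 180 in Asc-RFP had at least 5 Rgs5 UMIs. None of those had a Higd1b or Vtn UMI.

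Thinned to 4000 UMIs, 13.7% (10.6 to 17.3) of members of Asc-GFP and 9.03% (8.18 to 9.95) of Rgs5-zero cells had a Kcnj8 UMI, and before thinning 43.2% and 24.1%. In Asc-RFP the thinned shares were 13.1% (9.59 to 17.3) and 7.89% (6.79 to 9.09), and before thinning 35.1% and 19.9%. As a check on free RNA, Kcnj8 was counted before thinning in barcodes with under 10 Myh11 UMIs and at least 20 UMIs of markers of another cell type. It had a UMI in 0 of 31 macrophage-like barcodes of Asc-RFP (up to 9.68% allowed, median 8103 UMIs), 2 of 13 endothelial-like barcodes there (15.4%, 1.92 to 45.5), and 4 of 70 macrophage-like barcodes of Root (5.71%, 1.58 to 13.99). Over classes of Rgs5 UMIs, Kcnj8 went from 25.8 CPM at 0 to 43.9 CPM at 20 or more in Asc-GFP and from 21.4 to 41.7 CPM in Asc-RFP. In Arch-GFP it went from 27.8 to 91.3 CPM.

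Of the 13 pericyte markers 7 were measured in each ascending library. By a log2 ratio of at least 0.5, which 6.2% of all measured genes reached upward and 3.38% downward in Asc-GFP and 7.31% and 4.59% in Asc-RFP, Kcnj8 was the 1 higher marker in either, Notch3 the 1 lower in Asc-GFP and Cox4i2, a subunit of cytochrome oxidase, the 1 lower in Asc-RFP at 9.87 against 14.2 CPM (-0.53, -1.29 to 0.16). Pdgfrb, Cspg4 and Mcam, which mural cells of all vessels share, were at 98.3 against 87.7, 370 against 314 and 219 against 246 CPM in Asc-GFP. In Asc-RFP they were at 103 against 83.2 (0.31, 0.08 to 0.53), 311 against 285 and 251 against 248 CPM. Summed over the 13 markers, members were at 928 against 841 CPM in Asc-GFP (log2 ratio 0.14, 0.08 to 0.20) and 822 against 743 CPM in Asc-RFP (0.15, 0.07 to 0.22). Higd1b, Vtn and Ndufa4l2 were at 0 in members and Rgs5-zero cells of Asc-GFP, and Vtn and Steap4 in those of Asc-RFP. Of the other genes given as marks of these cells, Kcnj8 and Abcc9 were higher by small amounts and Higd1b was at or near 0, so the cells are called by the Rgs5 rule and given no other name.

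**Figure D4:**
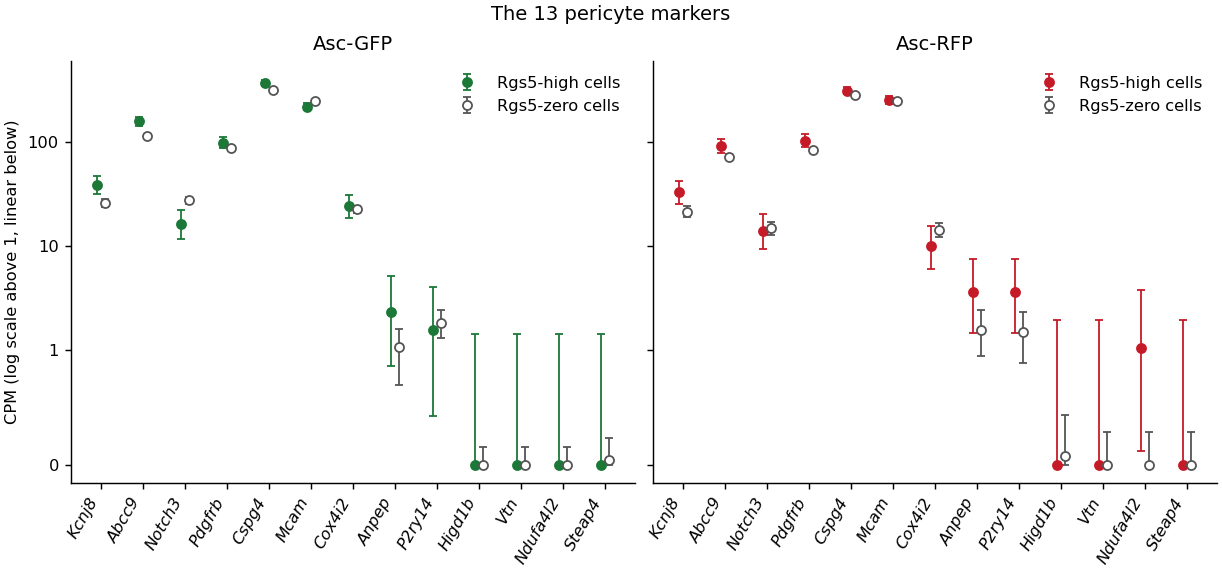
CPM of the 13 pericyte markers (log scale above 1, linear below) in Rgs5-high cells (filled) and Rgs5-zero cells (open) of Asc-GFP and Asc-RFP, with exact Poisson 95% intervals. Filled and open points lie close together for every measured marker, Kcnj8 at 38.5 and 25.8 CPM in Asc-GFP being among the widest apart, and Higd1b, Vtn and Steap4 lie at or near 0 in both.

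Genes of an arch list were higher in ascending members than in Rgs5-zero cells, at a summed level far under that of Rgs5-high cells of the arch. A list of 18 arch genes, which earlier results chose on these libraries and which is therefore no independent evidence, stood at a summed 244 CPM in members and 103 CPM in Rgs5-zero cells of Asc-GFP (log2 ratio 1.249, 1.12 to 1.38), 222 and 124 CPM in Asc-RFP (0.84, 0.68 to 0.99), and 1564 and 238 CPM in Arch-GFP. The list thus went with Rgs5 within the arch as well. Its level in members cannot tell arch genes from genes that go with Rgs5. Of the 18, 12 reached 5 CPM in either cell group of Asc-GFP and 9 in Asc-RFP. Prrx2, Tshz2, Dlx5, Dlx6, Fbln1 and Epha3 did so in Asc-GFP through the members alone, as did Prrx2 and Tshz2 in Asc-RFP, so that such genes had to be higher and no count over the list is given. Prrx2, a homeodomain factor of branchial mesenchyme, was at 25.6 against 4.72 CPM in Asc-GFP (2.44, 1.98 to 2.90), 12.5 against 2.64 CPM in Asc-RFP (2.24, 1.42 to 3.03) and 147 against 12.4 CPM in Arch-GFP. Tshz2, a zinc finger homeodomain gene, was at 15.1, 19.7 and 122 CPM in members of Asc-GFP, Asc-RFP and Arch-GFP and at 1.24, 3.89 and 4.76 CPM in Rgs5-zero cells.

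Dlx5 and Dlx6, branchial homeodomain factors, were higher in members of Asc-GFP. In Asc-GFP, Dlx5 was at 11.7 against 1.16 CPM (3.33, 2.53 to 4.14) and Dlx6 at 8.16 against 0.558 CPM (3.87, 2.81 to 4.99). In Asc-RFP, Dlx5 was at 1.56 against 1.17 CPM (0.42, -2.01 to 2.24) and Dlx6 had no UMI in members, and the difference between the libraries was not tested. In members of Arch-GFP they stood at 62.0 and 66.5 CPM. Adamtsl1, a gene of the list named here after its values were seen because its arch ratio was the widest, was at 189 CPM in Rgs5-high cells of Arch-GFP and at 4.27 and 3.12 CPM in those of Asc-GFP and Asc-RFP, from 11 and 6 UMIs.

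Cell by cell, few members reached the level of Rgs5-high cells of the arch. Summed over the 18 genes, a member of either ascending library had a median of 1 UMI per cell thinned to 6000, an Rgs5-zero cell 0, and an Rgs5-high cell of Arch-GFP 8. The cut was set at 8 UMIs, the median of Rgs5-high cells of Arch-GFP, so the share of those cells that reach it follows from that choice. At least 8 UMIs were found in 4 of 429 members of Asc-GFP (0.932%, 0.255 to 2.37) and 3 of 321 of Asc-RFP (0.935%, 0.193 to 2.71), against 724 of 1424 in Arch-GFP (50.8%, 48.2 to 53.5). Of the Rgs5-zero cells, 1 of Asc-GFP (0.0257%, 0.000652 to 0.143) and 2 of Asc-RFP (0.0933%, 0.0113 to 0.337) reached 8. In Rgs5-zero cells of the arch, 1.11% (0.741 to 1.58) did. The means of this sum in ascending members were near that of Rgs5-zero cells of the arch, at 1.47 and 1.33 UMIs in Asc-GFP and Asc-RFP and 1.43 in Rgs5-zero cells of Arch-GFP.

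**Figure D5:**
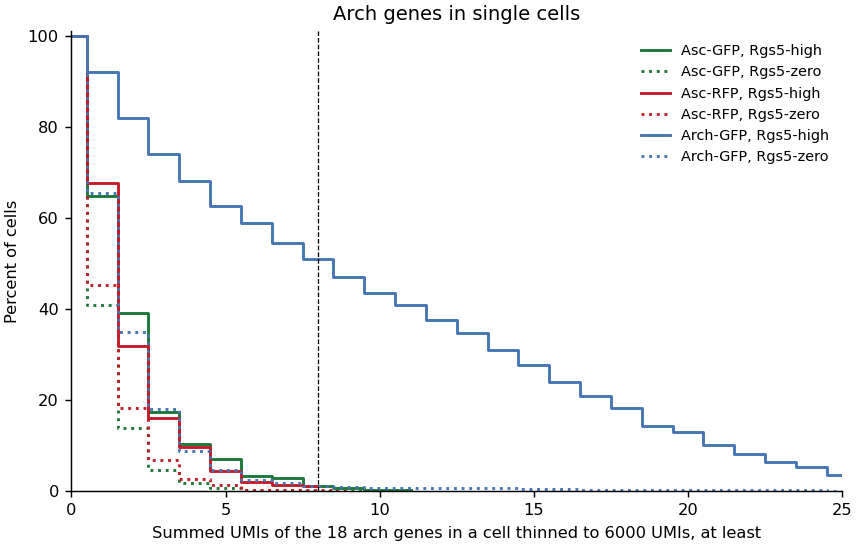
Percent of cells (vertical) with at least the number of summed UMIs of the 18 arch genes on the horizontal axis, in cells thinned to 6000 UMIs, for Rgs5-high cells (solid) and Rgs5-zero cells (dotted) of 3 libraries. The dashed line marks 8 UMIs, the median of Rgs5-high cells of Arch-GFP, so the 50.8% of them that reach it follow from that choice. Under 1% of Rgs5-high cells of Asc-GFP and Asc-RFP reach it.

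A list of arch genes found without Rgs5-high cells was short. By the same 2-fold rule on Rgs5-zero cells alone, Arch-GFP exceeded Asc-GFP for 6 of 5639 genes (0.106%) and lay below it for 2 (0.0355%), Tnnt2 and Tbx20. The 6 were Igfbp5, Frzb, Zfp503, Lgals3, Epha3 and Ablim1. In members of Asc-RFP, whose cells took no part in finding them, 5 were measured, 3 higher by a log2 ratio of at least 0.5 and 1, Lgals3, lower. Of all genes measured there, 7.31% were higher and 4.59% lower, with a median of 0.04. The list median was 0.61, and it was 0.38 with a second random draw, 0.24 at 4000 UMIs per cell and 0.16 with members chosen after thinning. In Asc-GFP 3 of 6 were higher and 1, Lgals3 again, lower, where 6.2% and 3.38% of all measured genes were. The list was picked for low levels in the same Rgs5-zero cells of Asc-GFP, so these ratios were tilted upward by that choice. Epha3, at 6.605 against 1.758 CPM, also passed the 5 CPM minimum through the members alone and so had to be higher. The list median in Asc-GFP was 0.41, beside 0.04 for all measured genes. It was 0.73 with a second draw, and -1.17 in male cells alone, with 72 members. When all kept cells were compared, 25 of 5713 genes (0.438%) were higher in the arch and 4 (0.07%) lower. Rgs5-high cells made up 19.6% of kept cells in Arch-GFP and 6.93% in Asc-GFP. The comparison of all kept cells therefore also picks genes that go with Rgs5, such as Prrx2, Tshz2 and Gm26771. For that reason no count or median over its genes in the members is given. Single genes it picks, such as Prrx2, Tshz2, Dlx5 and Adamtsl1, are given in members above as arch genes. The same limit holds for those values, which cannot tell arch genes from genes that go with Rgs5.

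Genes of elastic fibres, the stretch-bearing fibres of the aortic media, were at a summed 7657 against 5795 CPM in Asc-GFP and 6156 against 5121 CPM in Asc-RFP. By a log2 ratio of at least 0.5, 7 of 16 measured genes were higher in Asc-GFP, with a list median of 0.42, and 3 of 16 in Asc-RFP, with a median of 0.24, where 6.2% and 7.31% of all measured genes were higher and the median was 0.04. Among the 7, Fbln1, at 5.05 against 2.10 CPM, passed the 5 CPM minimum through the members alone and so had to be higher. Mfap5, a microfibril glycoprotein, was at 893 against 492 CPM in Asc-GFP (0.86, 0.80 to 0.93) and 663 against 364 CPM in Asc-RFP (0.86, 0.77 to 0.95). Ltbp2, a latent TGF-beta binding protein homologue, was at 68.0 against 36.1 CPM (0.91, 0.67 to 1.15) and 62.3 against 37.7 CPM (0.72, 0.42 to 1.02). Loxl2, a lysyl oxidase that cross-links matrix, was at 16.3 against 9.18 and 45.2 against 26.6 CPM.

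Fibroblast markers moved with the members in part. Of 7 measured in Asc-GFP 5 were higher and none lower, and of 9 in Asc-RFP 4 and none, where 6.2% and 7.31% of all measured genes were higher. Smoc2 in Asc-GFP and Lum and Smoc2 in Asc-RFP passed the 5 CPM minimum through the members alone. Lamc3, a laminin chain, was at 79.6 against 34.0 CPM in Asc-GFP (1.228, 0.999 to 1.451) and 97.6 against 50.6 CPM in Asc-RFP (0.95, 0.71 to 1.18). Dcn, decorin, was at 21.4 against 14.9 CPM in Asc-GFP (0.52, 0.08 to 0.93, with 0.76 in female and -1.11 in male cells) and 83.6 against 34.9 CPM in Asc-RFP (1.26, 0.99 to 1.52). Dcn was lower with Rgs5 in Arch-GFP, at 4.57 against 16.6 CPM (-1.86, -2.38 to -1.37). Pi16 and Clec3b, which mark adventitial fibroblasts, were under 1 CPM in both cell groups of both libraries. The sum of the 12 markers was 3300 against 2427 CPM in Asc-GFP and 2429 against 2125 CPM in Asc-RFP, most of it Col1a2, which SMCs also make (1980 against 1334 and 1322 against 1115 CPM). The part of fibroblast RNA in these values was not tested.

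Markers of other cell types were low except for single genes. The summed level of 12 macrophage markers was 3.497 CPM in members and 4.246 CPM in Rgs5-zero cells of Asc-GFP, and 6.23 and 7.85 CPM in Asc-RFP. Of 12 endothelial markers 3 were measured in either library. Erg, an endothelial factor, was at 38.9 against 20.6 CPM in Asc-GFP (0.92, 0.59 to 1.23) and 29.1 against 25.7 CPM in Asc-RFP. Pecam1 was at 33.4 against 25.6 and 11.42 against 11.04 CPM, and Esam was lower, at 5.83 against 13.1 and 1.04 against 5.44 CPM. In Asc-RFP Esam had 2 UMIs in members and passed the 5 CPM minimum through the Rgs5-zero cells alone, so it had to be lower. The 12 endothelial markers summed to 81.2 against 61.5 CPM in Asc-GFP (0.40, 0.19 to 0.61) and 44.1 against 44.4 CPM in Asc-RFP. Cdh5 and Cldn5, which define endothelium, were under 1 CPM in both cell groups. The 12 cardiomyocyte markers summed to 98.3 against 121 CPM in Asc-GFP (-0.30, -0.49 to -0.12) and 480 against 370 CPM in Asc-RFP (0.38, 0.27 to 0.48), most of it Tnnt2, a troponin, at 415 against 310 CPM there. The part of RNA from other cell types in the results was not tested.

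Among the other genes named by the rule, several were called in 1 ascending library only. In Asc-GFP these included Cgnl1, a junction protein gene, at 21.4 against 7.20 CPM (1.57, 1.10 to 2.02), Chek2, a DNA damage kinase, at 22.9 against 8.19 CPM, Mmp2, a gelatinase, at 20.98 against 7.334 CPM, Galnt6, a glycosyltransferase, at 22.5 against 8.02 CPM, and Srpx2 at 35.3 against 13.2 CPM. Cgnl1, Chek2 and Mmp2 were also above 0 in Asc-RFP, at log2 ratios of 0.79, 0.83 and 0.93, whereas Galnt6 and Srpx2 stood at -0.26 and -0.15 with intervals that held 0.

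In Asc-RFP the highest ratio was that of Osr2, an odd-skipped zinc finger factor, at 22.9 against 3.42 CPM (2.74, 2.10 to 3.38), and in Asc-GFP it was at 5.83 against 1.37 CPM (2.09, 1.09 to 3.01), under the level minimum. Dlg2, a synaptic scaffold gene, was at 22.33 against 5.597 CPM, and Gria3, a glutamate receptor subunit, at 21.8 against 6.14 CPM (1.828, 1.252 to 2.386), with 14.8 against 4.07 CPM in Asc-GFP (1.86, 1.27 to 2.41). Cd55, a complement regulator, was at 21.8 against 5.75 CPM (1.92, 1.34 to 2.49), and Maf, a bZIP factor, at 34.8 against 14.7 CPM (1.24, 0.82 to 1.65). Psd, an ARF exchange factor, was at 125 against 50.6 CPM in Asc-RFP (1.3, 1.08 to 1.52) and at 5.83 against 6.05 CPM in Asc-GFP, where its level was low in both cell groups.

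The lower genes were alike in the ascending libraries for Cdh6, a cadherin, at 57.9 against 107 CPM in Asc-GFP and 35.8 against 65.4 CPM in Asc-RFP, and for Crip1, at 1382 against 2278 and 1263 against 1954 CPM. Bcam, a laminin receptor, was at 302 against 476 and 307 against 445 CPM. Epas1, the hypoxia-inducible factor HIF-2 alpha, was at 62.5 against 108 CPM in Asc-GFP (-0.79, -1.03 to -0.56) and 17.7 against 47.0 CPM in Asc-RFP (-1.41, -1.96 to -0.91). Fos was lower in Asc-GFP, at 49.3 against 88.7 CPM (-0.85, -1.11 to -0.59), and stood at 124 against 125 CPM in Asc-RFP. Pln, phospholamban, the brake on the sarcoplasmic calcium pump, was at 9.32 against 21.2 CPM in Asc-GFP (-1.19, -1.84 to -0.60) and 34.3 against 33.9 CPM in Asc-RFP. S100a4 and Wnt16 were lower in Asc-RFP, at 138 against 260 and 72.7 against 119 CPM, and stood at 354 against 378 and 137 against 136 CPM in Asc-GFP.

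Pathway lists that bear on vessel tone are counted against the same shares of all measured genes, 6.2% higher and 3.38% lower in Asc-GFP and 7.31% and 4.59% in Asc-RFP. Of 10 measured Notch pathway genes 2, Notch3 and Hes1, were lower in Asc-GFP and none of 9 in Asc-RFP, and none was higher in either. Of 24 measured contractile genes none was higher and 1, Pln, lower in Asc-GFP, and 1, Actg2, was higher and none lower in Asc-RFP. Of 21 TGF-beta genes 2 were higher in Asc-GFP, Ltbp1 and Ltbp3, and none in Asc-RFP, and none was lower. Of the ion channel genes 4 of 18 were higher in Asc-GFP (Kcnj8, Kcne4, Trpc1 and Piezo1, the last at -0.40 in male cells) and 2 of 17 in Asc-RFP (Kcnj8 and Trpm4), and none was lower. Piezo1, at 6.22 against 3.26 CPM in Asc-GFP, passed the 5 CPM minimum through the members alone and so had to be higher. Of the vasoactive receptors 1 of 9 was higher and 1 lower in Asc-GFP, and 3 of 10 were higher and 1 lower in Asc-RFP. Calcrl, which pairs with RAMP proteins as a receptor of calcitonin gene-related peptide, was higher in both libraries, at 12.4 against 7.08 CPM (0.81, 0.22 to 1.37, but -0.33 in male cells) and 10.4 against 5.21 CPM (0.9955, 0.1964 to 1.734). The others higher in Asc-RFP were Npr3, at 17.1 against 11.7 CPM, and Adra1b, at 5.19 against 2.49 CPM, both with intervals that held 0. Adra1b passed the 5 CPM minimum through the members alone and so had to be higher. P2rx1, an ATP-gated channel, was lower in both, at 5.44 against 9.56 CPM (-0.81, -1.71 to -0.04) and 3.63 against 8.63 CPM (-1.247, -2.595 to -0.157). In Asc-RFP P2rx1 passed the 5 CPM minimum through the Rgs5-zero cells alone. Egln3, a HIF prolyl hydroxylase, was at 6.22 against 2.62 CPM (1.249, 0.355 to 2.061) and 7.27 against 2.57 CPM (1.503, 0.487 to 2.444), with 25.3 against 3.81 CPM in Arch-GFP.

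Further lists gave these counts by a log2 ratio of at least 0.5, where 6.2% of all genes measured in Asc-GFP were higher and 3.38% lower, and 7.31% and 4.59% in Asc-RFP. Modulated SMC genes, of cells that lose contractile for matrix genes, had 6 of 14 higher and 2 lower in Asc-GFP, and 2 of 17 higher and 5 lower in Asc-RFP, and Lgals3 was lower in both. Lum, 1 of the 2 higher in Asc-RFP at 9.35 against 3.65 CPM, passed the 5 CPM minimum through the members alone and so had to be higher. Of the neural crest and branchial regulators 4 of 12 were higher in Asc-GFP (Prrx2, Dlx5, Dlx6 and Hoxb3) and 1 of 9, Prrx2, in Asc-RFP, and Twist2 was lower in both. Prrx2, Dlx5 and Dlx6 passed the 5 CPM minimum through the members alone, and Twist2 through the Rgs5-zero cells alone. Of 20 immediate-early genes 4 were lower and none higher in Asc-GFP (Fos, Egr1, Ier2 and Fosb, whose log2 ratio of -2.01 was 0.86 in male cells), and in Asc-RFP 2 were lower (Junb and Klf4) and 1, Nr4a1, higher. Of the hypoxia genes 3 of 13 were higher and 1 lower in Asc-GFP, and 2 of 12 higher and 3 lower in Asc-RFP. Egln3 passed the 5 CPM minimum through the members alone in both libraries, and Fosb in Asc-GFP through the Rgs5-zero cells alone. The differences between the libraries were not tested.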

How the data were processed

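Single-cell RNA was measured in 4 libraries from the 10x Genomics 3′ v3.1 kit that the labels' protocols name. What the authors deposited are unnormalized UMI counts for each gene in each barcode. Cell Ranger 7.0.0 wrote them, per the file headers, and the submitters' processing notes name mm10 and Seurat 4.3. Filtered barcodes, free RNA and doublets were left as deposited, and no doublet caller was run. Of 32287 features, 32158 were matched to GENCODE M21 by identifier for positions.

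Cells were thinned to 6000 UMIs (seed 1), shallower cells left out, and summed per cell group (Python 3.11.15, numpy 2.4.6, scipy 1.17.1). Ratios of CPM carry exact conditional binomial 95% intervals, levels exact Poisson and shares exact binomial ones. UMIs of cells of 1 library are not independent animals, so no p-value was computed. The 12 highest and 12 lowest genes per library by the interval bound nearest 0, list members with the largest ratios and all pericyte markers were named; genes named as exceptions to a count were chosen after their values were seen. Rgs5, mitochondrial, ribosomal protein, sex-linked marker and reporter genes were left out of counts. Members and gene lists were chosen with earlier results of these data known. The script was checked on simulated data. Alternatives were other depths, no thinning, a second seed, other Rgs5, Myh11 and level minimums, and cells of 1 sex.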

Additional observations from a re-analysis of the deposited data

Results flagged for a closer look

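Timp1, a metalloproteinase inhibitor, had ratios of opposite sign in the ascending libraries with intervals that excluded 0 in both. Its log2 ratio of Rgs5-high over Rgs5-zero cells was 1.16 (0.66 to 1.64) in Asc-GFP, from 45 UMIs in members, and -1.27 (-2.51 to -0.25) in Asc-RFP, from 8. Its level was under 20 CPM in every cell group, and the difference between the libraries was not tested.

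Barcodes that failed the filters on detected genes or mitochondrial UMIs also held Rgs5. At least 5 Rgs5 UMIs were found in 6 such barcodes of 2437 in Asc-GFP and in 4 of 2509 in Asc-RFP, above the 3 that a count of 0 allows. None of them had a Higd1b or Vtn UMI.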

How the results depend on the processing

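Counts of genes at least 2-fold apart moved under several alternatives. The 24 higher and 8 lower genes of Asc-GFP became 15 and 3 with no thinning, 10 and 1 with members of at least 3 Rgs5 UMIs, 41 and 15 with at least 10, 107 and 52 at 5 CPM or more, 9 and 2 at 50 CPM or more, and 119 and 84 in male cells only, which rest on 72 members. At 10000 UMIs per cell 4 were lower. The 18 higher and 4 lower genes of Asc-RFP became 53 and 22 with at least 10 Rgs5 UMIs, 115 and 75 at 5 CPM or more, 5 and 2 at 50 CPM or more, 29 and 21 in female and 62 and 34 in male cells. The higher count was 11 with no thinning and 9 with at least 3 Rgs5 UMIs. The lower count was 8 at 4000 UMIs per cell, 7 with a second seed, 8 with members chosen after thinning and 20 with no Myh11 minimum.

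The log2 ratio of the summed pericyte markers, 0.14 in Asc-GFP, was 0.035 at 4000 UMIs per cell and 0.23 in male cells, and 0.15 in Asc-RFP became 0.25 in female cells. The median of the arch genes found by rule in Asc-GFP, 0.41, was -1.17 in male cells, and their number went from 6 to 25 in all kept cells. The share of members, 6.93% in Asc-GFP, was 5.68% when chosen as at least 3 Rgs5 UMIs after thinning, 8.29% in female and 4.65% in male cells, and 8.36% in Asc-RFP became 6.91% after thinning. Of 803 values of single genes under alternatives, 707 moved by less than their counting interval, 96 moved further. They cover the genes named by rank and the pericyte markers, not those named from other lists, of which Rgs2 in Asc-RFP and Fosb in Asc-GFP changed sign in male cells. Leaving out cells of at least 10 Fos UMIs was chosen after seeing the data. The cause of these shifts was not tested. No paired analysis was possible because each group is 1 library. In the members, genes under 5 CPM rest on few UMIs.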
